A study of Rattus norvegicus with 6 samples.

Results

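The connexins form gap junctions, and 5 of their genes (Gja1, Gja3, Gja4, Gja5 and Gjb2) are described here among 14217 genes measured in rat Achilles tendon. The tendons were taken on post-natal day 7 and post-natal day 1, with 3 arrays at each age and RNA pooled from at least 2 animals on each array. Neither the strain nor the sex of the animals is stated in the labels used here. The array was an Affymetrix oligonucleotide array for the rat, whose unit is the probe set, a group of short probes against 1 transcript, read out as an intensity in arbitrary units. The genes were chosen by the day 7 against day 1 intensities of these same arrays, in which Gja3 stood strongly lower on day 7. The day 7 against day 1 values of the 5 genes are therefore a description, and no p-value is given for them.

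Connexins are membrane proteins that assemble into hexameric channels, and channels of adjoining cells dock to form the gap junction. Small molecules, second messengers and ions pass through it directly from cell to cell. In rat tendon, gap junctions are known to join tendon cells along and between their rows. Pannexins form related membrane channels that open mainly to the outside of the cell.

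The promoters of 3 of the genes are shown because their transcripts differed most plainly between the ages, Gja3 and Gja5 standing lower and Gja1 higher on day 7. The sequences are RefSeq's, on the build GRCr8, from 250 bases before to 50 bases after the annotated start of the gene, read 5′ to 3′ on the gene's strand. Capitals mark matches on either strand to 5 motifs. The GC box, bound by Sp1 and its relatives, was searched as GGGCGG. The E box, bound by basic helix-loop-helix factors, was searched as CANNTG. The AP-1 site was searched as TGANTCA and the T-box site as GGTGTGA, and the TATA box was searched as TATAAA. The Gja3 window lies at chr15:35322356-35322655 on the minus strand, that of Gja5 at chr2:187290977-187291276 on the plus strand and that of Gja1 at chr20:36302314-36302613 on the plus strand.
Gja3: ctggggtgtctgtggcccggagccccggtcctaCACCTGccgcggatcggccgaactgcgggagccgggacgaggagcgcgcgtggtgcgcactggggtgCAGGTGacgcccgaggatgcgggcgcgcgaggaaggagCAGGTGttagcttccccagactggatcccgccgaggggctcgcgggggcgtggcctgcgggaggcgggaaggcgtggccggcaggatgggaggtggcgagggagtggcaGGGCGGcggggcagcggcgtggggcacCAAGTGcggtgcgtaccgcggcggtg
Gja5: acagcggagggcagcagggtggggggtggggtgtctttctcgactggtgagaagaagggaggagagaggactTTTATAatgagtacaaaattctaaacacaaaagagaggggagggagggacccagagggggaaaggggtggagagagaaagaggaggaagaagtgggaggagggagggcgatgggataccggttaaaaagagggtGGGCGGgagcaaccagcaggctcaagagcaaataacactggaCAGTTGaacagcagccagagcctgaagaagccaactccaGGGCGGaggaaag
Gja1: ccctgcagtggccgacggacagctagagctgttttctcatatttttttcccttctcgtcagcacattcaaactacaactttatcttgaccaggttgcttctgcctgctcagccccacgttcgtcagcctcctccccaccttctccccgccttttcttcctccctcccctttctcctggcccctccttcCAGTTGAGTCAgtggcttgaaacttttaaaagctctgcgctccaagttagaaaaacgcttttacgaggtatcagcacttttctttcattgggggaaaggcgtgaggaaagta

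The Gja3 promoter held 4 E boxes and 1 GC box. The E boxes began at positions -217, -150, -112 and 25, counted from the start of the gene. At least 1 E box was present in 71.6% of the 27457 promoters of this length, and 4 or more in 5.48%. Its GC content was 75.3%, above that of 96.8% of all promoters. The Gja5 promoter held 2 GC boxes, 1 E box and 1 match to the TATA box letters, the last on the opposite strand at position -178. A GC box was present in 34.9% of all promoters and a TATA box match in 14.3%. The Gja1 promoter held 1 AP-1 match at position -58, which overlapped the end of its 1 E box, and an AP-1 match was present in 7.33% of all promoters. No T-box match lay in any of the 5 promoters. These matches describe letters in a window and were not tested against the expression values.

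The deposited intensities had closely similar distributions on the 6 arrays, with medians between 20.5 and 21.1. Probe sets against trp, a bacterial gene that rats lack, read between 3.74 and 4.76 and served as the negative control level. Across all genes 5.08% passed an adjusted p of 0.05 (limma, Benjamini-Hochberg over all probe sets), 1.93% with a higher and 3.15% with a lower day 7 level, and the median log2 change over all genes was -0.01. At an unadjusted p under 0.05, 10.6% of all genes were higher and 17.0% lower. Each log2 change is the day 7 mean less the day 1 mean of log2(intensity + 1), which understates the change of dim probe sets, and SE is limma's moderated standard error. A p-value here reflects how the arrays of an age varied, in which differences between pools of animals and between array measurements cannot be told apart. The 3 arrays per age limit the precision of every value. In whole tissue, fewer cells of a type and less RNA per cell cannot be told apart.

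Gja3, known best as a connexin of lens fibre cells, was the member with the widest difference between ages. It read 17.1, 23.3 and 15.1 on day 7 replicates 1, 2 and 3, against 83.9, 74.4 and 129 on the day 1 replicates in the same order. The ages did not overlap, and the lowest day 1 array read 3.19 times the highest day 7 array. The mean was 18.5 ± 4.26 on day 7 and 95.8 ± 29.2 on day 1 (SD, n = 3 each). The log2 change was -2.29 (SE 0.23), which is 4.89-fold lower on day 7. Only 6 of the 14217 genes had a more negative log2 change. Between single arrays, the 9 possible differences of a day 7 array from a day 1 array lay between -3.01 and -1.63 on the log2 scale.

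The second probe set of Gja3 stood in the same direction with a smaller difference. It read 19.8, 21.8 and 15.8 on day 7, against 49.7, 37.1 and 55.3 on day 1. Its ages did not overlap either, and its log2 change was -1.26 (SE 0.18), or 2.39-fold lower. Both probe sets placed the arrays of each age in the same order, replicate 2 above 1 above 3 on day 7 and replicate 3 above 1 above 2 on day 1. All 6 values of both probe sets lay above the highest trp control value. The size of the difference thus depended on the probe set, and with a pseudocount of 16 it was -1.67 for the first one.

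Gja5, the Cx40 protein of arterial endothelium and of the atria and conduction tissue of the heart, was also lower on day 7. It read 31.5, 24.0 and 33.6 on day 7, against 73.2, 79.3 and 61.9 on day 1. The ages did not overlap, and the lowest day 1 array read 1.84 times the highest day 7 array. The mean was 29.7 ± 5.04 on day 7 and 71.5 ± 8.81 on day 1 (SD, n = 3 each), with a log2 change of -1.25 (SE 0.16), or 2.37-fold lower. The order of the arrays within an age was the reverse of that for Gja3 at both ages. The other Gja5 probe set read between 4.26 and 5.50 on the 6 arrays, close to the trp control level, and gives no usable comparison.

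Gja1, which encodes Cx43, the most widely expressed connexin of fibroblasts, bone cells and heart muscle, stood higher on day 7. It read 3283, 2106 and 2310 on day 7, against 1738, 1564 and 1009 on day 1. The ages did not overlap, but the lowest day 7 array read only 1.21 times the highest day 1 array. The mean was 2566 ± 629 on day 7 and 1437 ± 381 on day 1 (SD, n = 3 each), and the log2 change was 0.85 (SE 0.24), or 1.80-fold higher. Of its other probe sets, 1 read 14.2, 14.1 and 11.2 on day 7, against 10.5, 11.2 and 10.2 on day 1, with a log2 change of 0.28 (SE 0.12). The remaining one lay between 4.27 and 5.14 on all arrays, at the control level. The difference for Gja1 therefore rests on 1 bright probe set.

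Gja4, the endothelial connexin that works beside Gja5 in vessels, showed no separation of the ages. It read 273.6, 221.1 and 243 on day 7, against 275.2, 211 and 211.4 on day 1. The mean was 245.9 ± 26.4 on day 7 and 232.5 ± 36.9 on day 1 (SD, n = 3 each), with a log2 change of 0.09 (SE 0.15). The highest and the lowest of the 6 values were both on day 1.

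Gjb2, which encodes Cx26, a connexin of epidermis, liver and the inner ear, was dim on 4 arrays and high on 2. It read 35.1, 10.9 and 11.3 on day 7, against 179.7, 9.04 and 8.82 on day 1. The high arrays were replicate 1 of each age, and on day 1 the highest array read 20.4 times the lowest. The log2 change of -0.58 had an SE of 1.06, and without day 1 replicate 1 it was 0.81. The ages overlapped, and the direction of the difference was set by that array.

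Of the 5 genes, 2 had all day 7 arrays below all day 1 arrays, 1 had them all above, and 2 overlapped. Over all genes the shares were 19.1% below and 14.0% above. Since the genes were grouped by this contrast, nothing is read from this count.

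**Figure D1:**
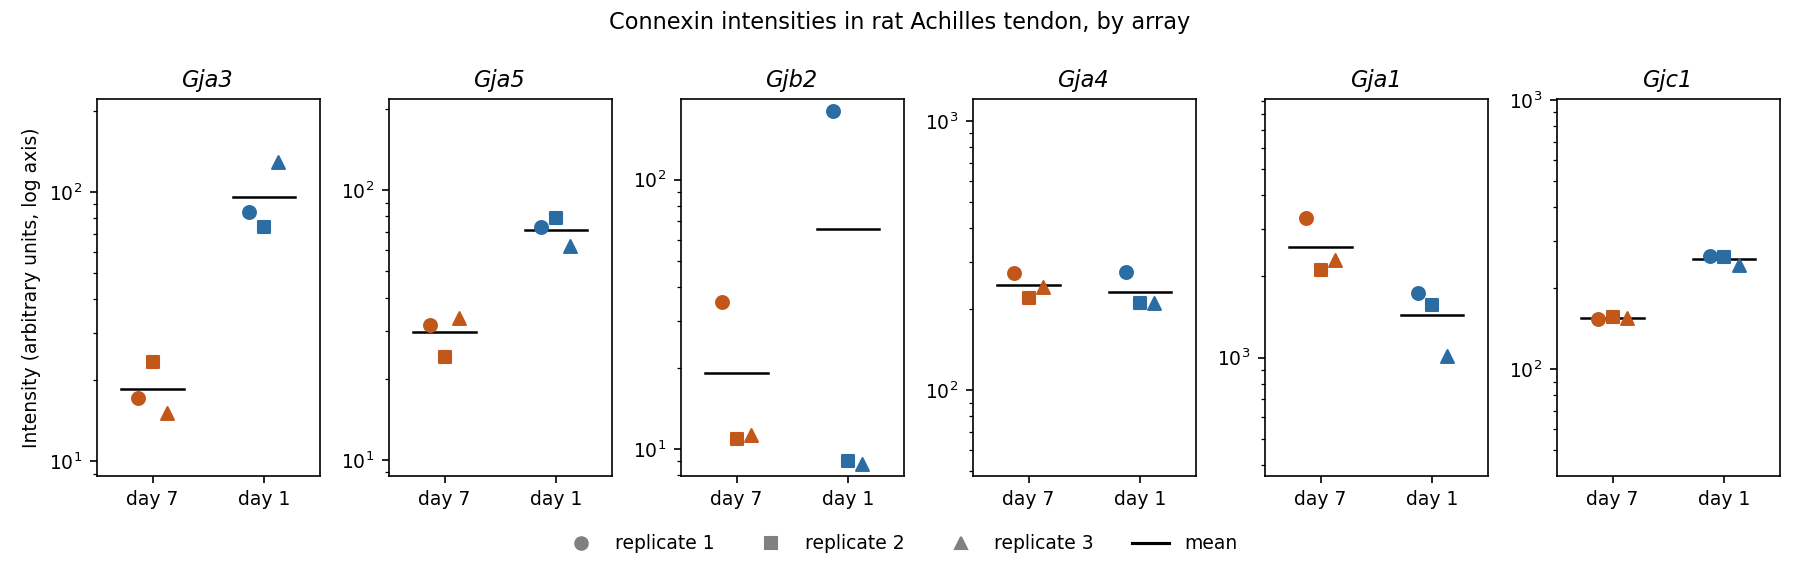
Intensity of Gja3, Gja5, Gjb2, Gja4, Gja1 and, for comparison, Gjc1 on each of the 6 arrays (log axis, arbitrary units, each panel with its own range of equal width), with day 7 left of day 1, marker shape giving the replicate and a bar the mean of 3 arrays. Gja3, Gja5 and Gjc1 lie lower on day 7 with no overlap, Gja1 lies higher, Gja4 overlaps, and Gjb2 is high on replicate 1 of each age.

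A further 18 connexin and pannexin genes were listed, of which 8 had a probe set of their own, and these were tested. None rose and 1 fell (limma, adjusted p under 0.05), against 1.93% higher and 3.15% lower of all genes. At an unadjusted p under 0.05 there was 1 higher and 1 lower, against 10.6% and 17.0% of all genes. The median log2 change of the 8 was 0.05. The gene that fell was Gjc1, which encodes Cx45, a connexin of smooth muscle, heart conduction tissue and early embryos. It read 154.2, 156.9 and 155.4 on day 7, against 262.4, 261.7 and 243.3 on day 1, so that the arrays of an age hardly differed and the ages lay well apart. The log2 change was -0.71 (SE 0.10; limma adjusted p = 0.0180), or 1.64-fold lower.

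The log2 change of Gjc1 lay between -0.75 and -0.70 when 1 array was left out, but the adjusted p was 0.0753 without day 1 replicate 1, 0.0904 without day 7 replicate 1 and 0.0502 without day 7 replicate 3 (limma). Without both arrays numbered 1 or both numbered 2 it was 0.283 and 0.0504. Gjc1 had 1 probe set, so no second reading was available.

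Gjb1, the Cx32 protein of liver and Schwann cells, which has also been located between rat tendon cells, was dim. It read 10.8, 12.8 and 12.2 on day 7, against 9.32, 10.2 and 8.53 on day 1. Although the ages did not overlap, the log2 change of 0.32 (SE 0.12) did not pass (limma adjusted p = 0.166). The neuronal connexin Gjd2 read 7.58, 6.64 and 11.3 on day 7, against 6.31, 7.00 and 5.45 on day 1 (limma adjusted p = 0.297). Gja6, Gjb5, Gjb6 and Panx3 stayed under 9.51, which is 2 times the highest control value, on every array, and their adjusted p-values lay between 0.389 and 0.953 (limma). At such intensities a difference would be hard to detect. Panx1, the widely expressed pannexin, read 20.2, 34.3 and 24.1 on day 7, against 36.4, 23.4 and 27.6 on day 1, with a log2 change of -0.16 (SE 0.22; limma adjusted p = 0.718).

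**Figure D2:**
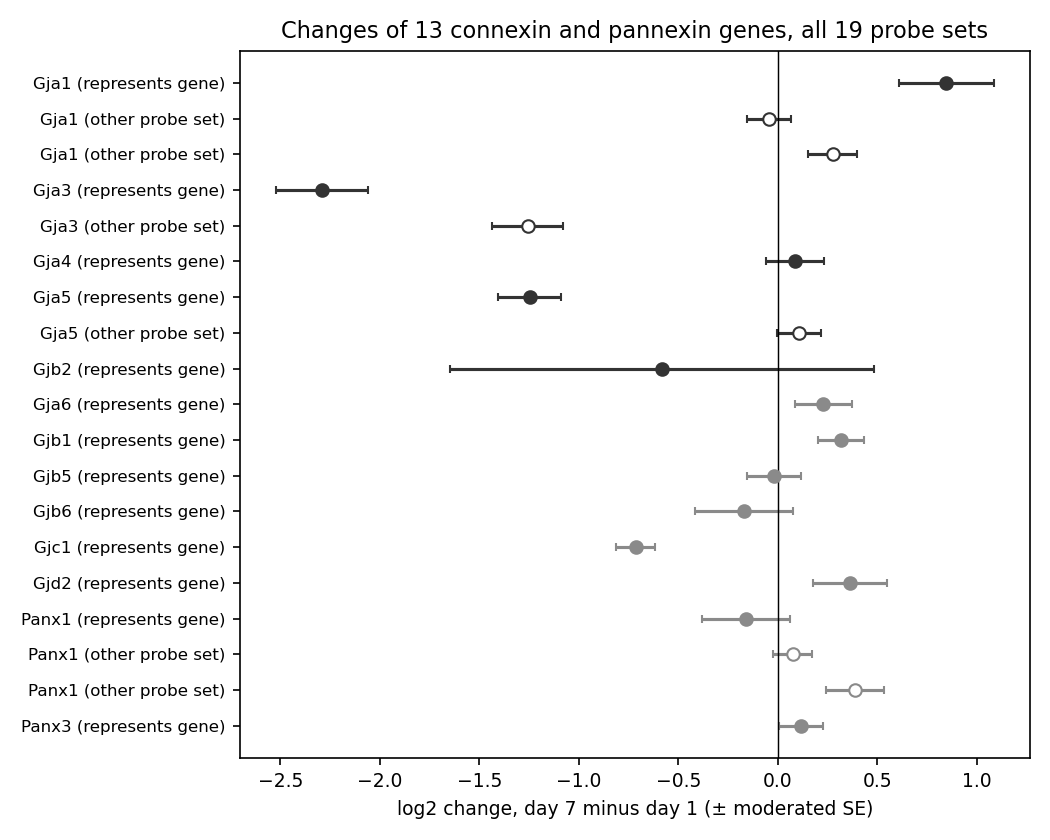
Log2 change, day 7 minus day 1, of all 19 probe sets of the 13 measured connexin and pannexin genes, with bars of 1 moderated SE; filled points represent the gene, open points are its other probe sets, and the 5 grouped genes are in dark grey. Gja3 lies farthest to the left at -2.29, its second probe set at -1.26, and Gjb2 has the widest bar.

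Gja3, Gjb2 and Gjb6 lie close together on chromosome 15, with 1 annotated coding gene between Gja3 and Gjb2 and none between Gjb2 and Gjb6. On these arrays Gja3 was lower on each day 7 array than on each day 1 array, while Gjb2 was high on replicate 1 of each age. Gjb6, an epidermal and inner ear connexin, read 6.34, 4.16 and 3.94 on day 7, against 8.23, 4.59 and 4.16 on day 1. It too was highest on replicate 1 of each age, at intensities near the control level.

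Genes of proteins that bind, scaffold, modify or turn over connexins were listed next. Of 16, 14 were measured. None rose and 1 fell (limma), against 1.93% higher and 3.15% lower of all genes, with a median log2 change of -0.11. At an unadjusted p under 0.05 there were 0 higher and 1 lower, against 10.6% and 17.0% of all genes. The one that fell was Dbn1, the actin-binding protein drebrin, which in mouse astrocytes is known to bind Cx43. It read 481.7, 562 and 526.6 on day 7, against 855.4, 910.2 and 901.7 on day 1, with no overlap. Its log2 change was -0.77 (SE 0.11; limma adjusted p = 0.0186), or 1.70-fold lower. Dbn1 no longer passed in the limma fits that left out day 1 replicate 1 (0.0664), day 1 replicate 3 (0.0557), day 7 replicate 1 (0.0904) or day 7 replicate 3 (0.0502), with log2 changes between -0.82 and -0.71 over the 6 fits without 1 array.

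Of 13 transcription factors known to act on connexin genes, mostly from work on the heart, all were measured. None rose and 1 fell (limma), against 1.93% higher and 3.15% lower of all genes, with a median log2 change of 0.08. At an unadjusted p under 0.05 there were 3 higher and 2 lower, against 10.6% and 17.0% of all genes. Fos, a subunit of the AP-1 factor, read 39.3, 24.4 and 31.8 on day 7, against 74.2, 117.8 and 235.1 on day 1. Its log2 change was -1.99 (SE 0.38; limma adjusted p = 0.0362), with no overlap between ages but a wide spread on day 1, and over the mean of its probe sets it was -0.91 (0.0678). This call was lost in 5 of the 6 fits without 1 array, the exception being the fit without day 1 replicate 1 (0.0488). The others gave 0.0590 without day 1 replicate 2, 0.0545 without day 1 replicate 3, 0.117 without day 7 replicate 1, 0.0725 without day 7 replicate 2 and 0.0953 without day 7 replicate 3.

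Lists of cell type markers were set beside the connexins, and their association over the arrays was not tested. The background of each count below is 1.93% higher and 3.15% lower of all genes past the adjusted threshold. At an unadjusted p under 0.05 it is 10.6% higher and 17.0% lower. For skeletal muscle, 16 of 16 listed genes were measured, none rose and 5 fell (limma), with 15 lower at an unadjusted p under 0.05. Their summed intensity was 48379, 60406 and 41774 on day 7, against 77146, 68765 and 84072 on day 1. The order of the arrays was that of Gja3 at both ages, as was the order for the pericyte and smooth muscle sum given below. The 5 that fell included Myod1 and Myog, transcription factors of muscle formation, with log2 changes of -1.95 and -1.66 (limma adjusted p = 0.0303 and 0.0338). Myod1 read 36.8, 66.4 and 24.6 on day 7, against 147.8, 121.4 and 204.8 on day 1. The others were Ryr1, the calcium release channel of muscle, at -1.08, and the perinatal and embryonic myosin heavy chains Myh8 and Myh3, at -0.89 and -0.88 (limma adjusted p = 0.0462, 0.0433 and 0.0313). Acta1, Ckm and Tnnt3, the muscle actin, creatine kinase and fast troponin T, head the list and had log2 changes of -0.13, -0.92 and -0.94 (limma adjusted p = 0.578, 0.0738 and 0.0604). The part of muscle RNA in the Gja3 values was not tested.

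Lens is the tissue in which Gja3 is best known. All 11 lens genes listed were measured, none rose or fell (limma), with 1 higher and 2 lower at an unadjusted p under 0.05. The summed level was 1716 to 2802 on day 7, against 2492 to 3233 on day 1, and most of it was Cryab, a small heat shock protein that muscle also makes. The defining alpha crystallin Cryaa read 9.15 to 11.1 on day 7, against 8.90 to 9.37 on day 1, and the beta crystallin Crybb2 read at most 6.32. Of the 11, 4 stayed under 9.51 on every array. Gja3 is also known from rat osteoblasts, and 6 of 8 bone genes were measured, with none called, none at an unadjusted p under 0.05, and sums of 49.6 to 66.8 on day 7, against 58.0 to 71.0 on day 1. Osteocalcin, Bglap, read at most 18.4, bone sialoprotein, Ibsp, at most 6.69 and the alkaline phosphatase Alpl at most 10.6.

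Gja5 and Gja4 are connexins of endothelium. Of 12 endothelial genes listed, 10 were measured, Egfl7 rose and none fell (limma), with 4 higher and 0 lower at an unadjusted p under 0.05 and a median log2 change of 0.26. Their sum was 2607 to 3155 on day 7, against 2129 to 2863 on day 1, so that the ages overlapped. The adhesion molecule Pecam1 and the receptors Kdr and Tek had log2 changes of 0.38, -0.01 and 0.07 (limma adjusted p = 0.185, 0.985 and 0.788). For pericytes and smooth muscle, 10 of 10 genes were measured and none passed (limma), with 4 higher and 4 lower at an unadjusted p under 0.05. Their sum was 3704, 4254 and 3220 on day 7, against 5452, 4436 and 5495 on day 1. Des, which is also in the skeletal muscle list, was the brightest of them on every array. It read 1469, 2180 and 1215 on day 7, against 2970, 2355 and 2984 on day 1. Both the sum and Des had the array order of Gja3 at both ages, and the part of Des was not taken out of the sum. The smooth muscle genes Acta2, Tagln and Myh11 had log2 changes of -0.44, -0.62 and 1.09 (limma adjusted p = 0.197, 0.0982 and 0.0546), and the part of these cells in the values of Gjc1 was not tested.

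Epidermal genes set the same array apart as Gjb2 did. Of 11 listed, 10 were measured, with none called (limma) and none at an unadjusted p under 0.05. Their sum was 505.5, 212.0 and 229.4 on day 7, against 7217, 203 and 206.9 on day 1, highest on replicate 1 of each age. Krt5, a basal keratin, read 68.1, 11.4 and 16.2 on day 7, against 755.7, 14.5 and 15.4 on day 1. Krt14 and Krt10 were likewise highest on day 1 replicate 1, at 696.6 and 2575. The part of epidermal RNA in the Gjb2 values was not tested.

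**Figure D3:**
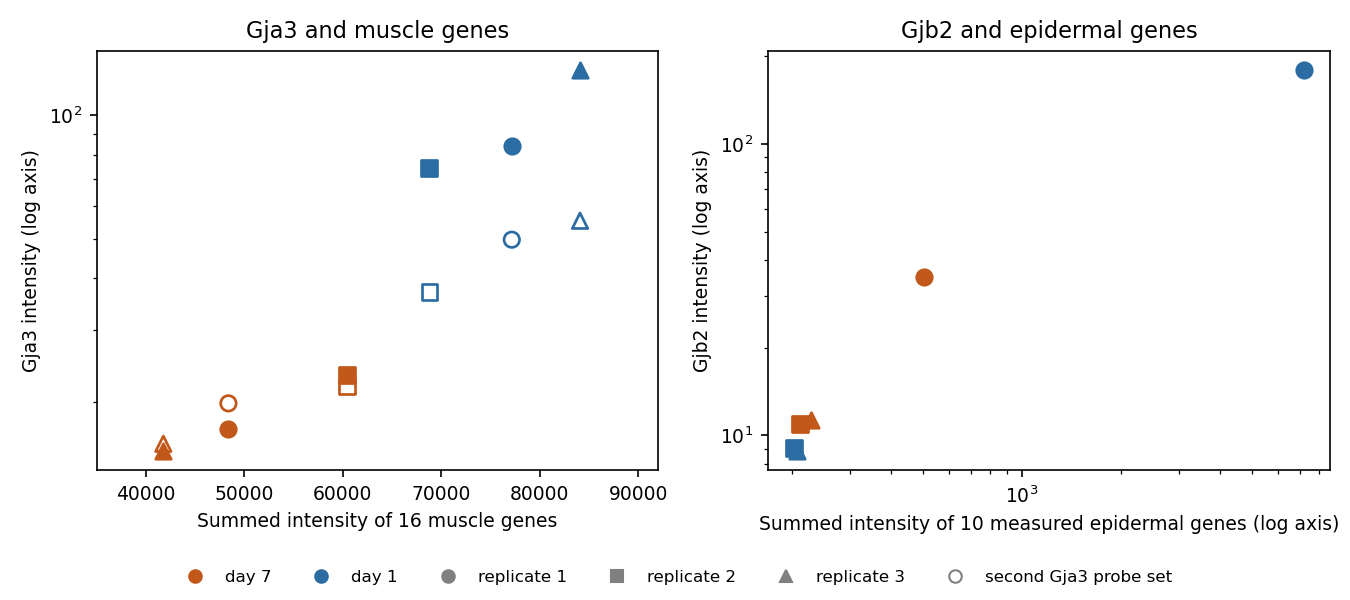
Left, Gja3 intensity (log axis; filled, the probe set that represents the gene; open, the second one) against the summed intensity of 16 skeletal muscle genes; right, Gjb2 intensity against the summed intensity of 10 epidermal genes (both axes log), for each of 6 arrays. The day 7 arrays lie lower than the day 1 arrays in both Gja3 and muscle genes, and Gjb2 is highest on the array with the most epidermal signal, day 1 replicate 1.

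Gja1 was highest on day 7 replicate 1 and lowest on day 1 replicate 3. These arrays also had the highest and lowest sums of tendon, of cartilage and of endothelial genes. The endothelial sum was 3155, 2607 and 3024 on day 7, against 2863, 2690 and 2129 on day 1. Its array order was that of Gja1 at both ages, which the orders of the tendon and cartilage sums were not. The 10 tendon genes, all measured, of which 2 rose and 1 fell (limma), summed to 63084, 53153 and 48436 on day 7, against 38056, 45798 and 27622 on day 1. Comp and Dcn rose and Egr1 fell. At an unadjusted p under 0.05 there were 6 higher and 1 lower, against 10.6% and 17.0% of all genes. The 3 named first in that list, Scx, Tnmd and Fmod, had log2 changes of 0.13, 0.70 and 1.24 (limma adjusted p = 0.646, 0.163 and 0.0888). Of 10 cartilage genes 8 were measured, 2 rose and none fell, and their sum was 6819, 4777 and 4123 on day 7, against 2322, 3663 and 1532 on day 1. Col9a2 and Cytl1 rose, and at an unadjusted p under 0.05 there were 7 higher and 0 lower. Col2a1, Acan and Col9a1, matrix genes of cartilage, had log2 changes of 1.33, 1.07 and 0.74 (limma adjusted p = 0.0932, 0.147 and 0.103). Of 9 adipocyte genes, all measured, 7 rose and none fell, with sums of 2789 to 5537 on day 7, against 1577 to 1763 on day 1. At an unadjusted p under 0.05 there were 9 higher and 0 lower. Adipoq, Plin1 and Cidec, genes of the fat cell hormone adiponectin and of lipid droplets, rose by log2 changes of 4.84, 4.78 and 2.83 (limma adjusted p = 0.00400, 0.0104 and 0.0180). Of 10 Schwann cell and nerve genes 8 were measured, 1 rose and 1 fell, and their sum was 5825, 2273 and 8866 on day 7, against 1902, 2242 and 2039 on day 1. S100b rose and Ngfr fell, and at an unadjusted p under 0.05 there were 5 higher and 1 lower. The myelin genes Mbp, Pmp22 and Mag had log2 changes of 3.27, 0.84 and 1.27 (limma adjusted p = 0.178, 0.129 and 0.197). Mbp read 1890, 81.1 and 3422 on day 7, against 41.1, 142.9 and 96.4 on day 1. The ages overlapped for Mbp and Mag, both lowest of day 7 on replicate 2, but not for Pmp22. The part of these cell types in the Gja1 values was not tested.

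The genes whose profile over the 6 arrays was nearest to that of Gja3 were Mymk, Myl4, Slc35g2, Dpysl5 and LOC102548331. Nearness was the root mean square difference of log2 values after each gene was centred on its own mean, among 13814 genes brighter than the control level. It was 0.11 for Mymk, the myoblast fusion protein myomaker, and 0.16 for Myl4, an embryonic myosin light chain. It was 0.19 for the solute carrier Slc35g2, 0.20 for Dpysl5, a protein of growing axons, and 0.22 for LOC102548331. Mymk read 102.9, 140.2 and 89.9 on day 7, against 400.7, 435.4 and 752.1 on day 1, with the highest array of each age the same as for Gja3. The lowest array was also the same on day 7, but on day 1 it was replicate 1 for Mymk and replicate 2 for Gja3. Because the measure takes in the difference between ages, it favours genes that are lower on day 7 to a like degree.

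By the same measure, the genes nearest to Gja5 were Bub1b, a checkpoint kinase of mitosis (0.12), Ncapd2, a subunit of the chromosome-compacting condensin complex (0.15), and the DNA topoisomerase Top2a (0.16). Bub1b read 31.0, 28.1 and 38.6 on day 7, against 85.7, 75.1 and 71.3 on day 1. Top2a read 174.1, 148.4 and 197.1 on day 7, against 479.7, 369.3 and 327.1 on day 1. Ncapd2 read 43.9, 47.6 and 53.0 on day 7, against 123.4, 117.9 and 100.5 on day 1. The highest array on day 7 was replicate 3 for Gja5 and these 3 genes. On day 1 it was replicate 2 for Gja5 but replicate 1 for these 3 genes. The array lowest of its age was day 1 replicate 3 for Gja5 and these 3 genes, and day 7 replicate 2 for Gja5, Bub1b and Top2a but day 7 replicate 1 for Ncapd2. Such likeness is built into the choice of the genes.

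**Figure D4:**
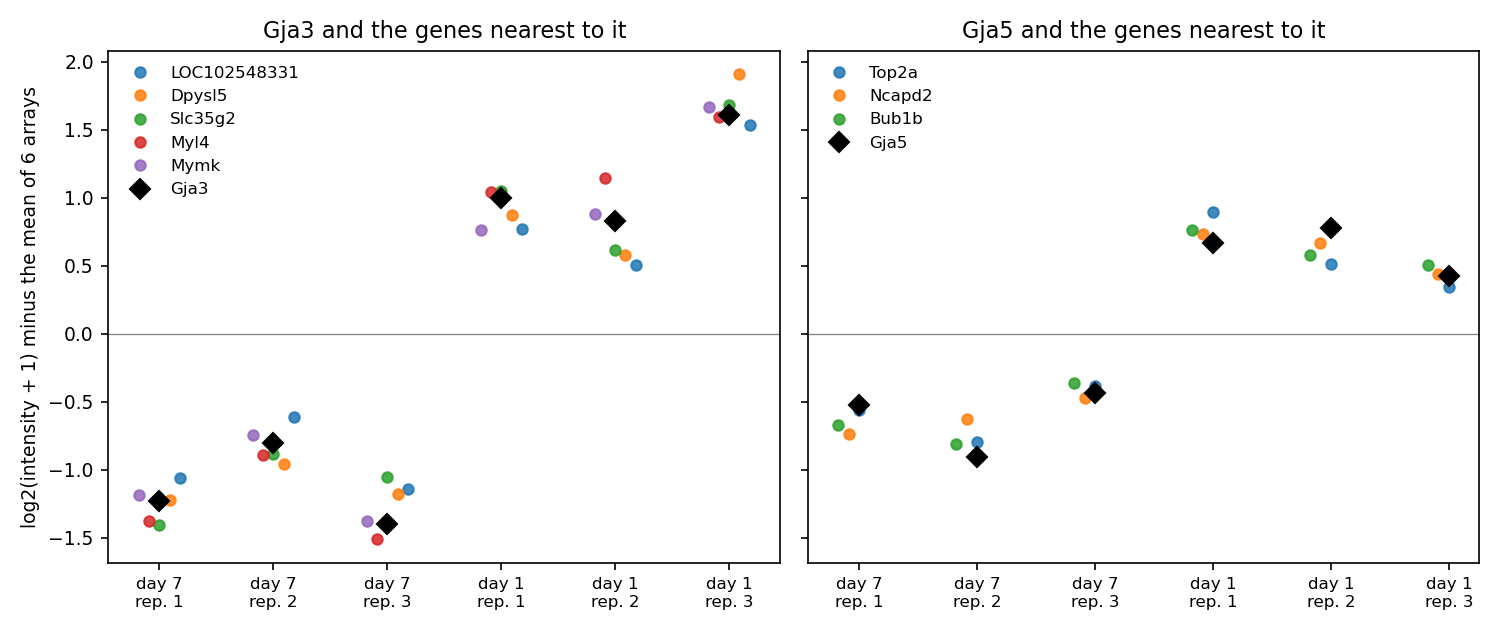
Log2(intensity + 1) minus the gene's mean over 6 arrays, for Gja3 with its 5 nearest genes (left) and Gja5 with its 3 nearest (right), by array, with day 7 left of day 1; black diamonds are the connexins. Gja3 is highest on day 1 replicate 3 and lowest on day 7 replicate 3, and Gja5 is highest on day 1 replicate 2 and lowest on day 7 replicate 2.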

How the data were processed

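Transcript levels were measured on 6 arrays, 3 of each age. The deposited table gives a linear intensity for each probe set on each array. The submitters' processing notes name MAS5 and RMA, with no role for either. How the authors corrected background and scaled the deposited intensities is not given in the sources used here. Values were transformed to log2(intensity + 1) and not normalized further, and 57 control probe sets were left out, leaving 31042. The platform annotation names 1 gene for 20826 of them. A gene is represented by its brightest probe set (mean log2 value over 6 arrays), and other probe sets are a check. Day 7 was compared with day 1 with limma 3.58.1 in R 4.3.3 (lmFit and eBayes; two-sided p-values, adjusted by Benjamini-Hochberg across the probe sets, threshold 0.05). For arrays no read depth exists; the trp controls set the level below which values carry little information.

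The 5 connexins and the lists were chosen with earlier results of these data known. The motifs were chosen after the promoters had been seen. The text names the 5 connexins, each measured gene of the wider family, partners and regulators past the threshold, the first 3 measured genes of marker lists, and the genes nearest to Gja3 and to any other of the 5 whose log2 change exceeded 1. Epidermal and other markers named beyond these were chosen after their values were seen. Listed genes with no probe set naming them alone were not analysed here. The alternatives tried were another pseudocount (16), quantile normalization, median centring, only the brighter probe sets, averaging all probe sets of a gene, array weights, an intensity trend with robust variances, blocking on the replicate number, and leaving out each array. Fits without both arrays numbered 1 or 2 were added after seeing the data.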

Additional observations from a re-analysis of the deposited data

How the results depend on the processing

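The number of genes called depended on the setting, which sets the background of each count. Of all genes, 274 were higher and 448 lower (limma), against 4 to 271 higher and 0 to 382 lower without 1 array. Array weights gave 538 and 897, a pseudocount of 16 gave 182 higher, and the fit without both arrays numbered 1 gave 1 and 0. With the replicate number as a block, 25 were higher and 8 lower. Same-numbered arrays did not deviate together (correlations of 0.05, -0.25 and -0.14 for numbers 1, 2 and 3), and 1 of the 6 arrays correlated best with its own number, so the numbers are not taken as pairs.

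The fall of Gjc1 counted 1 in the wider family and 0 with the replicate block (adjusted p = 0.0776), without both arrays numbered 1 and without both numbered 2. It counted 0 to 1 over the fits without 1 array. Of the partners, Dbn1 counted 1, and 0 with the replicate block (0.0725) and without both arrays numbered 1, with 0 to 1 without 1 array. Of the regulators, Fos counted 1, and 0 with a pseudocount of 16 (0.0860), the mean of probe sets (0.0678), the replicate block (0.0854) and without both arrays numbered 1 or 2, with 0 to 1 without 1 array. The log2 change of Fos, -1.99, was -0.91 with the mean of probe sets and -1.61 with a pseudocount of 16, and lay between -2.38 and -1.55 without 1 array. The signs of Gjc1, Dbn1 and Fos stayed negative under each setting that was run, and the causes of the lost calls were not tested.

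The log2 changes of the 5 connexins, without 1 array, lay between -2.46 and -2.06 for Gja3, -1.34 and -1.10 for Gja5, 0.61 and 1.00 for Gja1, 0.01 and 0.21 for Gja4, and -1.29 and 0.81 for Gjb2. Those of Gja3 and Gja5 were smaller with a pseudocount of 16 (-1.67 and -0.94) and with the mean of probe sets (-1.77 and -0.57), which for Gja1 gave 0.36. Other probe sets gave -1.26 for Gja3, 0.11 for Gja5 and 0.28 and -0.044 for Gja1. Without both arrays numbered 2 Gja5 stood at -1.03. The setting with only the brighter probe sets gave no value for Gjb2, Gja6, Gjb1, Gjb5, Gjb6, Gjd2 and Panx3. Their low signal over the trp level limits their comparison, which for Gjb2 applies outside replicate 1 of each age.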

Other observations

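Some values of the wider family were chosen after they were seen. The repressor Tbx2, which acts on Gja1 and Gja5 in the mouse heart, read 30.1, 27.5 and 33.6 on day 7, against 23.8, 19.9 and 18.4 on day 1, with no overlap. Its log2 change was 0.54 (SE 0.13) and did not pass (limma adjusted p = 0.0690). Jun, the AP-1 partner of Fos, had a log2 change of -0.38 (SE 0.12; limma adjusted p = 0.125). The 3 probe sets of Panx1 had log2 changes of -0.16, 0.07 and 0.39, and none passed (limma adjusted p from 0.178 to 0.718). The spiked-in bacterial control bioB, read by the 3′ probe set, stood at 310.3, 351.2 and 496.8 on day 7, against 316.6, 277 and 179.4 on day 1. The arrays with the lowest and highest bioB values were those with the highest and lowest Gja3. The ratio of the 3′ to the 5′ control probe set of beta-actin was 2.40, 2.17 and 3.35 on day 7, against 2.44, 2.85 and 1.80 on day 1. It too was lowest and highest on the arrays with the highest and lowest Gja3. The same ratio for GAPDH was highest on day 7 replicate 1 (2.09) and lowest on day 7 replicate 2 (1.73). The part of bioB or of these ratios in the Gja3 values was not tested.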
